A study of Saccharomyces cerevisiae with 15 samples.

Results

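The mitochondrial ribosomal protein genes are the nuclear genes of budding yeast that encode the protein parts of the ribosome inside mitochondria. They were taken here as every gene whose standard name is MRPL, MRPS or RSM followed by a number, matched by systematic name to the gene identifiers of the count tables. The rule gave 54 of the 6692 genes counted, of which 34 are MRPL genes of the large subunit, 9 are MRPS genes and 11 are RSM genes, both of the small subunit. By their known proteins, 33 have a bacterial counterpart, 20 are particular to mitochondria and RSM22 encodes a methyltransferase-like protein linked to small subunit assembly. All 54 had enough reads to be tested, with no fewer than 96 reads in any sample, and they lie on 14 chromosomes.

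RNA-seq was performed on 15 cultures of Saccharomyces cerevisiae strain L40, 3 for each of 5 conditions, all grown in SD-L medium with 0.4% DMSO. The Curcumin and CPTH2 groups were the strain with the empty pL220 vector carrying an HA tag, kept for 1 h with 200 µM Curcumin, a natural compound reported to inhibit p300/CBP acetyltransferases, or with 400 µM CPTH2, a synthetic inhibitor of the histone acetyltransferase Gcn5. The scFv-58F group stably expressed an intrabody, an antibody fragment made inside the cell, against histone H3 acetylated on lysine 9, and the scFv-645 group expressed a control intrabody against neuroligin-2, a protein yeast lacks. The DMSO group carried the empty vector and received the solvent alone, and the study set each condition against it to ask which transcripts respond to drug or intrabody interference with histone acetylation. All groups share the L40 host, which is of mating type a, carries the his{delta}200, trp1-901 and ade2 alleles and a mutant leu2 allele, with lexAop reporters at LYS2 and URA3, and is labelled Gal4. The promoter of the vector and the number of transformants behind each strain are not given in the sources used here, so an intrabody strain cannot be told apart from the clone or clones that represent it.

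The mitochondrial ribosome makes the few proteins encoded by mitochondrial DNA, which in yeast are mostly core subunits of the respiratory chain and the ATP synthase, together with Var1, a ribosomal protein. Nearly all its other proteins are encoded in the nucleus, made in the cytosol and imported, and their transcripts are the best known targets of Puf3, an RNA-binding protein that recognises a short element after the stop codon and acts on the decay, localisation and translation of these mRNAs. Respiratory chain genes, by contrast, are known targets of the CCAAT-binding Hap complex, and cytosolic ribosomal protein genes answer to growth signals.

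The sequences after the stop codon are shown first because 53 of the 54 genes share an element there, which the naming rule did not use. TGTANATA, the Puf3 element written as DNA, with N any base, was searched on the sense strand of the 250 bases after the stop codon. It was found in 53 members (98.1%), against 942 of 6663 genes with such a window (14.1%), and on the opposite strand in 11 members (20.4%), against 899 genes (13.5%). The 12 members printed here are those whose transcripts are followed most closely through the comparisons. Each line gives the element nearest to the stop codon with 6 bases on either side, the position of the printed stretch in sacCer3 (reference sequence from RefSeq), its strand and the base after the stop codon at which the element begins. Capitals mark the element.
MRPS18 (chrXIV:58865-58884, plus strand, base 63): tattcgTGTAAATAattcga
MRPL4 (chrXII:1015472-1015491, plus strand, base 28): ctctccTGTAAATAtatata
MRPL19 (chrXIV:292093-292112, minus strand, base 87): ctattcTGTAAATAtgtata
MRPL7 (chrIV:937569-937588, plus strand, base 82): tcgtcaTGTAAATAtataaa
MRPL6 (chrVIII:392540-392559, minus strand, base 86): atacctTGTAAATAtcctat
MRPL38 (chrXI:131140-131159, plus strand, base 96): accaccTGTATATAttgctt
RSM26 (chrX:619116-619135, plus strand, base 88): atatacTGTAAATAgtttta
RSM10 (chrIV:540467-540486, plus strand, base 59): cgtactTGTAAATAaaatag
MRPS12 (chrXIV:694274-694293, minus strand, base 74): acctttTGTAAATAgcaatg
MRPL49 (chrX:246982-247001, plus strand, base 13): gggataTGTACATAtacgca
MRPL24 (chrXIII:650861-650880, plus strand, base 55): ttccccTGTATATAaaaaag
MRPL28 (chrIV:1386542-1386561, plus strand, base 32): tcctgcTGTAAATAactgat

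The 54 members held 68 elements in all, of which 29 read TGTAAATA, 21 TGTATATA, 17 TGTACATA and 1 TGTAGATA. The element occurred once in 40 members, 2 times in 11 and 3 times in MRPL19 and RSM19. Its nearest copy began 8 to 139 bases after the stop codon, with a median of 54. A C stood 2 bases before an element in 43 members (81.1% of those with an element), against 276 genes of all (29.3% of those with one). The single member without a match was RSM22, and that says only that these letters are not in this window.

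The element followed all 23 further mitochondrial ribosome genes with other names, but 6 of 34 nuclear respiratory chain genes (17.6%) and 7 of 132 cytosolic ribosomal protein genes (5.3%). Upstream, in the window from 250 bases before to 50 bases after the gene start and on both strands, CCAAT was present in 22 members (40.7%), against 44.4% of all genes and 29 of the 34 respiratory chain genes (85.3%). AAAATTTT was present in 3 members (5.56%), against 8.34% of all genes, TGACTC in 1 (1.85%), against 8.09%, and GATGAG in 10 (18.5%), against 20.2%.

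The libraries held between 9062694 and 18878167 reads on genes, and the members took 0.386% ± 0.0344 of them in Curcumin, 0.393% ± 0.0214 in CPTH2, 0.352% ± 0.0156 in scFv-58F, 0.329% ± 0.00839 in scFv-645 and 0.338% ± 0.00729 in DMSO (SD, n = 3 each). The 3 Curcumin libraries differed more from each other than those of any other group, with a mean distance between replicates of 63.2 on the log2 scale over all tested genes, against 16.6 to 26.0 in the other groups. Their TMM normalization factors were 1.16 to 1.29, against 0.901 to 1.01 elsewhere. TMM and plain library size therefore place the Curcumin fold changes of all genes differently, with an all-gene median log2 fold change against DMSO of 0.03 and 0.38. Of the genotype markers, TRP1 had 0 reads in every library. HIS3, LEU2, ADE2, LYS2 and URA3 had reads in each, with lowest counts of 3119, 46391, 429, 5914 and 1828. The source of these reads was not tested, and they do not check the genotype. All 5 a-specific genes were detected in each library, but so were all 4 alpha-specific genes, with lowest counts of 1 to 246. The alpha-specific SAG1 had a median of 25.2 CPM and the a-specific BAR1 29.2 CPM, so detection alone does not settle the mating type. Of 4 alpha-specific genes 3 were called higher in Curcumin than in DMSO, against 27.9% of all tested genes. The median log2 fold change of the 4 genes was 1.37. MF(ALPHA)1, the alpha-specific gene with the largest rise, measured 12.8 ± 9.995 CPM in Curcumin, against 0.886 ± 0.206 CPM in DMSO (SD, n = 3 each). Of the 5 a-specific genes 1 was called higher, MFA1 (2.67), and 2 lower, MFA2 (-2.20) and STE2 (-0.70). The part of these changes in the members' values was not tested. VAR1 had at most 2 reads in a library and the 8 mitochondrially encoded genes together 25 to 477, so the ribosome's own mitochondrial transcripts could not be followed in these libraries. In bulk RNA, fewer cells with a transcript and less transcript in each cell cannot be told apart.

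In DMSO most members were expressed above the median of all tested genes, with a wide spread. Their mean CPM per kilobase of gene (counts scaled for library size by TMM and divided by gene length) ran over a 25.4-fold range with a median of 104, against a median of 38.6 for all tested genes, 678 for the respiratory chain genes and 3837 for the cytosolic ribosomal protein genes. MRPS12, which encodes the uS12 protein of the decoding centre, had the highest level at 336 ± 15.7 CPM per kilobase (SD, n = 3). It was followed by RSM18, the bS18 gene, at 273 ± 24.3 and MRPL33, the uL30 gene, at 255 ± 21.9. RSM18 and MRPL33 do not differ beyond their spread.

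The lowest levels in DMSO were those of RSM22 at 13.3 ± 0.982 CPM per kilobase, MRPL4, which encodes the uL29 protein at the exit of the peptide tunnel, at 28.5 ± 2.72, and MRPL3, which encodes mL44, at 33.6 ± 1.32 (SD, n = 3 each). RSM22 was last of the 54 in CPTH2, scFv-58F, scFv-645 and DMSO, and 34th in Curcumin, where it reached 68.1 ± 11.6 CPM per kilobase. MRPS12 was first in every group but Curcumin, where it was 6th. The range from the highest to the lowest member was 13.5-fold in Curcumin, 30.0-fold in CPTH2, 37.8-fold in scFv-58F and 32.6-fold in scFv-645.

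**Figure D1:**
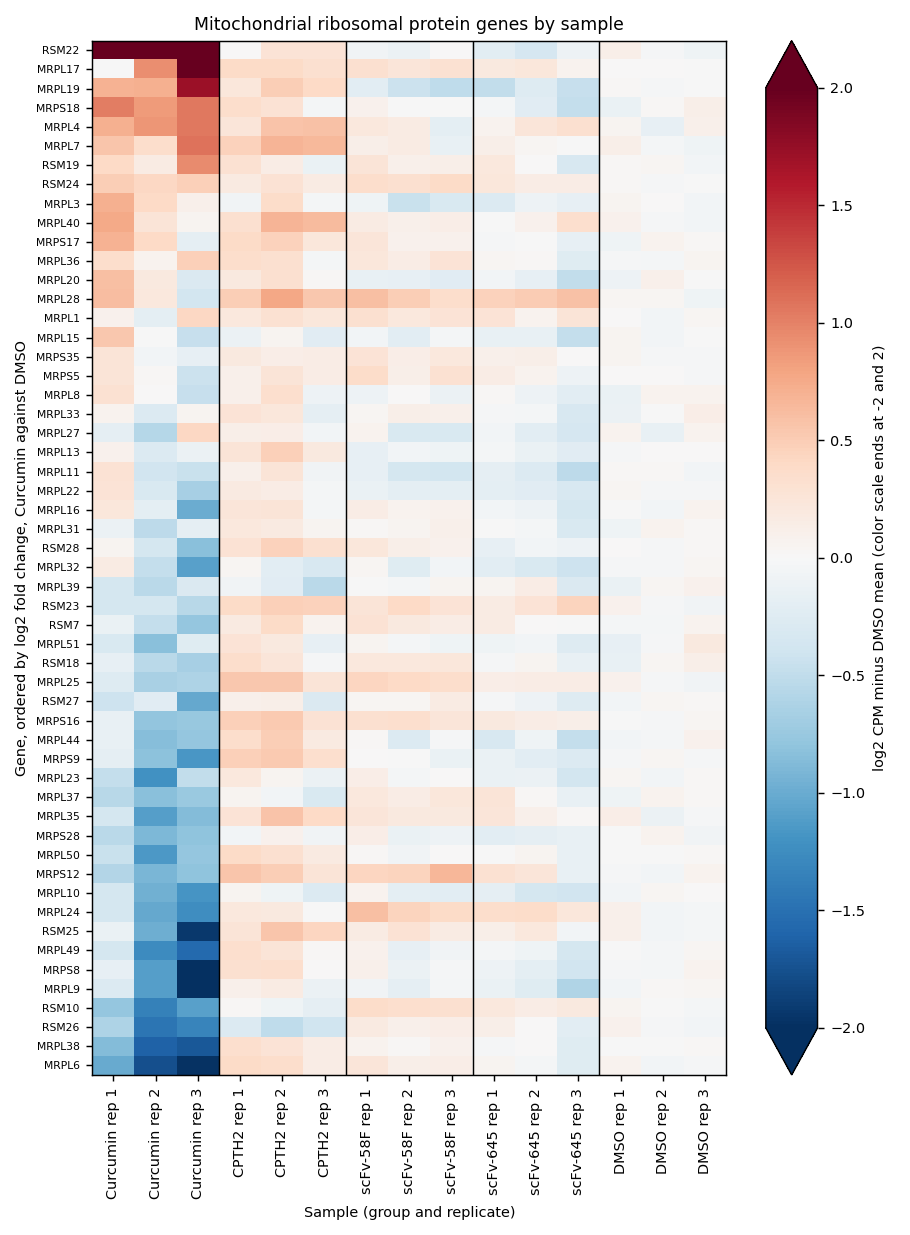
Heat map of the 54 members (rows, ordered by log2 fold change in Curcumin against DMSO) in the 15 samples (columns). Colour is the log2 CPM of a sample minus the DMSO mean, red for higher and blue for lower, with the scale ending at -2 and 2. Only Curcumin columns reach the ends of the scale, in red for RSM22 in all 3 samples and for MRPL17 in replicate 3, and in blue for MRPL9 and MRPS8 in replicate 3.

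In Curcumin the members changed in both directions, as did the tested genes as a whole. A gene was called when its adjusted p was under 0.05 and it differed by 1.5-fold or more. By this measure 5 members were higher than in DMSO (9.26%, against 27.9% of all tested genes) and 13 were lower (24.1%, against 24.7%). The median log2 fold change of the members was -0.37, against 0.03 for all tested genes, and 37 members had negative and 17 positive values. Scaled by library size alone, 12 members were higher and 4 lower (38.3% and 16.0% of all genes) and the median was -0.02. The members' median lay 0.40 below that of all genes under each of TMM, DESeq2 size factors and library size. All Curcumin samples lay below all DMSO samples for 27 members (34.2% of all tested genes) and above them for 9 (35.4%). Calls on both TMM and library size numbered 5 higher, RSM22, MRPL19, MRPS18, MRPL4 and MRPL7, and 4 lower, MRPL6, MRPL38, RSM26 and RSM10.

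RSM22, the assembly-linked gene, had the largest rise. It measured 133, 148 and 104.6 CPM in the 3 Curcumin samples, against 27.1, 24.5 and 23.5 CPM in DMSO. Every Curcumin sample was well above every DMSO sample, and the log2 fold change was 2.35 ± 0.19 (SE; adjusted p = 6.1e-04, edgeR's quasi-likelihood test). As a share of the reads on the members, which no scaling between libraries alters, RSM22 took 4.07% ± 0.906 in Curcumin and 0.712% ± 0.0586 in DMSO (SD, n = 3 each).

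MRPS18, which encodes the small subunit protein uS11, measured 248, 222 and 253 CPM in Curcumin, against 111, 125 and 132 CPM in DMSO. The groups did not overlap, the log2 fold change was 0.96 ± 0.17 (adjusted p = 0.00385), and MRPS18 became the member with the highest level per kilobase in Curcumin. It took 7.62% ± 0.797 of the members' reads in Curcumin and 3.49% ± 0.269 in DMSO. MRPL4, one of the lowest members in DMSO, measured 44.7, 50.6 and 57.1 CPM in Curcumin, against 28.3, 24.4 and 29.4 CPM in DMSO, again without overlap (0.88 ± 0.16, adjusted p = 0.00449).

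The other large subunit genes that rose depended more on single samples. MRPL19, which encodes uL11 of the stalk base, measured 42.0, 42.8 and 85.2 CPM in Curcumin, against 26.5, 25.6 and 25.9 CPM in DMSO (1.11 ± 0.30, adjusted p = 0.0181). Replicate 3 stood far above the other Curcumin samples, and without it the log2 fold change was 0.70, still called. The call of MRPL19 was lost without any 1 of the DMSO replicates (adjusted p = 0.0620 to 0.0634). MRPL19 shares 113 of its 477 bases with YNL184C on the same strand. MRPL7, the uL5 gene, measured 50.5, 44.1 and 73.3 CPM in Curcumin, against 37.4, 33.5 and 32.4 CPM in DMSO (0.69 ± 0.21, adjusted p = 0.0313). Its call was lost without Curcumin replicate 3, where the log2 fold change was 0.45, and without any 1 of the DMSO replicates (adjusted p = 0.0794 to 0.111).

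The falls were led by genes of both subunits. MRPL6, the uL6 gene, measured 40.5, 24.1 and 20.7 CPM in Curcumin, against 86.3, 79.0 and 80.1 CPM in DMSO. The highest Curcumin sample was below the lowest DMSO sample, with a log2 fold change of -1.54 ± 0.26 (adjusted p = 0.00344), and MRPL6 dropped to the 50th level of the 54 in Curcumin, against the 19th in DMSO. Its share of the members' reads was 0.876% ± 0.215 in Curcumin and 2.33% ± 0.124 in DMSO. MRPL38, the uL14 gene, measured 42.0, 25.02 and 23.5 CPM in Curcumin, against 76.0, 76.2 and 77.8 CPM in DMSO (-1.36 ± 0.24, adjusted p = 0.00407). MRPL38 shares 366 of its 417 bases with YKL169C on the opposite strand, the counts ignored strand, and the reads of the pair cannot be told apart.

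On the small subunit, RSM26, which encodes mS42, a relative of superoxide dismutases, measured 50.3, 28.1 and 30.9 CPM in Curcumin, against 81.7, 75.9 and 74.3 CPM in DMSO (-1.10 ± 0.24, adjusted p = 0.00799). RSM10, the uS10 gene, measured 75.3, 50.5 and 60.1 CPM in Curcumin, against 133, 127 and 125 CPM in DMSO (-1.07 ± 0.18, adjusted p = 0.00364). Neither gene had overlapping groups. MRPS12, the most abundant member in DMSO, measured 103, 82.0 and 88.7 CPM in Curcumin, against 153, 149 and 164 CPM in DMSO (-0.78 ± 0.16, adjusted p = 0.00666), and its share of the members' reads was 2.86% ± 0.0621 in Curcumin and 4.42% ± 0.157 in DMSO.

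Among the further genes that fell were MRPL49, the bL21 gene, at 45.9, 24.3 and 19.7 CPM in Curcumin, against 58.5, 56.7 and 60.4 CPM in DMSO (-0.98 ± 0.31, adjusted p = 0.0319), and MRPL24, the bL28 gene, with a log2 fold change of -0.84 ± 0.24 (adjusted p = 0.0235). Neither was called when scaled by library size alone, without Curcumin replicate 2 (adjusted p = 0.117 for MRPL49 and 0.0903 for MRPL24) or without any 1 of the DMSO replicates (adjusted p = 0.0793 to 0.0891 for MRPL49 and 0.0669 to 0.0779 for MRPL24). The remaining 6 genes that fell, MRPL10, MRPL50, MRPL35, MRPS28, MRPL37 and MRPL23, had log2 fold changes of -0.80 to -0.71. Of all tested genes 27.9% were higher and 24.7% lower, and with library size alone 38.3% and 16.0%. By subunit, 3 of 34 large subunit members rose and 9 fell, with a median of -0.22, while 2 of 20 small subunit members rose and 4 fell, with a median of -0.46. By origin, 4 of the 33 members with a bacterial counterpart rose and 10 fell, with a median of -0.41, and 3 of the 20 that are particular to mitochondria fell, with a median of -0.32. Scaled by library size alone the balance turned: 7 large subunit members were higher and 2 lower (median 0.13), 5 small subunit members were higher and 2 lower (median -0.11), 8 members with a bacterial counterpart were higher and 3 lower (median -0.06), and of those particular to mitochondria 3 were higher and 1 lower (median 0.03). Another 4 members passed the adjusted p alone, which brings those passing it to 6 higher (29.3% of all genes) and 16 lower (26.3%). They were RSM24 at 0.45 and RSM23, MRPL25 and MRPS16 at -0.43, -0.51 and -0.56.

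**Figure D2:**
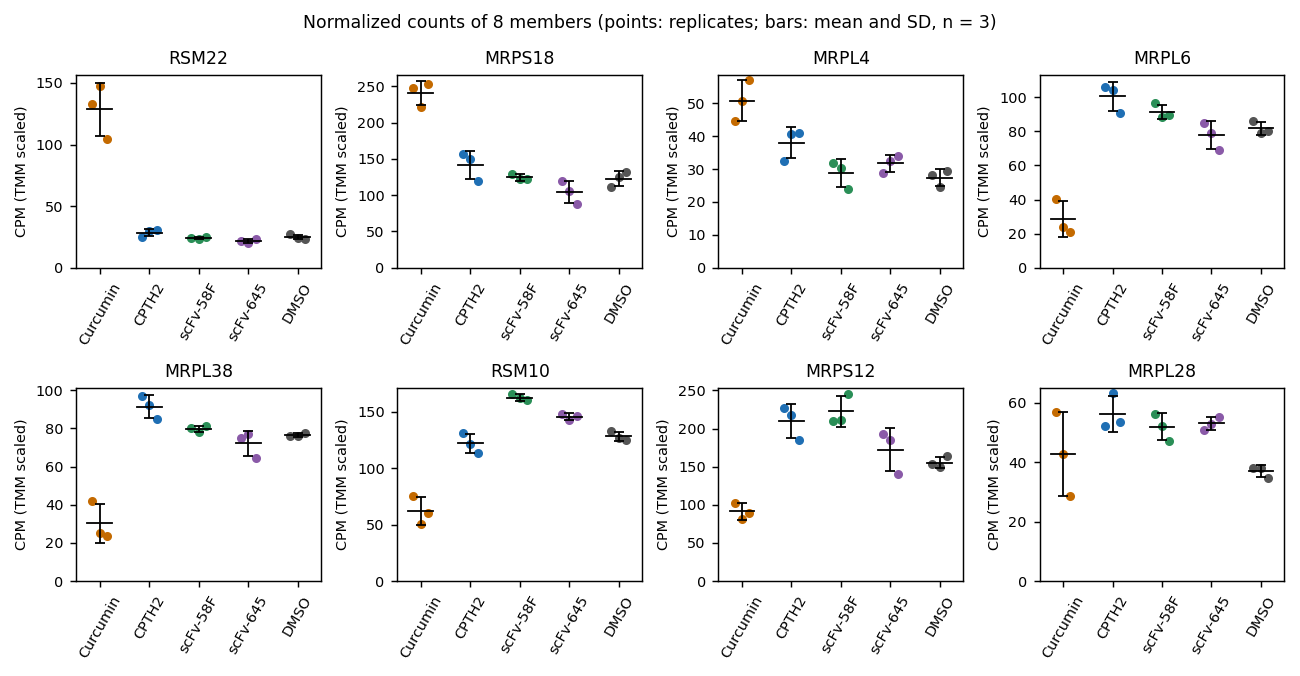
TMM-scaled CPM of 8 members in each group (points: replicates; bars: mean and SD, n = 3). Groups run from Curcumin to DMSO. The 3 Curcumin points of RSM22 lie between 104.6 and 148 CPM and no other sample exceeds 30.4 CPM, while the 3 Curcumin points of MRPL6 lie below those of all other groups.

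Several members moved widely among the Curcumin replicates and were not called, and are named here after their values were seen. MRPL17, which encodes mL46, measured 61.5, 117 and 306 CPM in Curcumin, against 61.6, 61.6 and 61.5 CPM in DMSO (1.38 ± 0.54, adjusted p = 0.0663). In the opposite direction, MRPS8, the uS8 gene, measured 34.5, 18.0 and 6.86 CPM in Curcumin, against 38.0, 37.8 and 40.5 CPM in DMSO, and MRPL9, the uL3 gene, 75.5, 42.5 and 15.6 CPM, against 87.6, 92.7 and 93.2 CPM (adjusted p = 0.133 for MRPS8 and 0.110 for MRPL9). MRPL9 shares 303 of its 810 bases with YGR219W on the opposite strand. Curcumin replicate 1 was nearest to DMSO and replicate 3 farthest for all of these. The median deviation of the 54 members from their DMSO means was -0.13, -0.43 and -0.53 on the log2 scale in Curcumin replicates 1, 2 and 3, and the median coefficient of variation was 26.5% in Curcumin and 4.53% in DMSO. Without Curcumin replicate 1, 6 members were higher and 23 lower, without replicate 2 they were 6 and 8, and without each DMSO replicate 3 were higher and 7 or 8 lower. For fits that left out a sample, here and in the later comparisons, the share of all genes was not taken. Their counts therefore have no background to be read against. RSM22, MRPS18 and MRPL4 were higher, and MRPL6, MRPL38, RSM26 and RSM10 lower, in all 14 fits of this comparison.

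In CPTH2 most members had slightly higher values than in DMSO and few passed the call. By edgeR's quasi-likelihood test 2 members were higher (3.70%, against 14.1% of all tested genes) and 0 lower (16.9% of all tested genes). At an unadjusted p under 0.05 there were 28 members, 1 of them with a lower value, and DESeq2 called 2. The median log2 fold change was 0.21, against -0.03 for all genes, with 45 positive and 9 negative values, and 22 members passed the adjusted p with higher values (30.9% of all genes did) and 1 with a lower value (33.1%). In a model of all 5 groups 9 members passed the adjusted p. For the unadjusted p, DESeq2 and 5-group counts, here and in the intrabody comparisons, the share of all genes was not taken. Those counts therefore have no background to be read against. The members' median lay 0.23 above that of all genes under all 3 scalings.

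MRPL28, which encodes mL40, measured 52.1, 63.3 and 53.6 CPM in CPTH2, against 38.1, 38.2 and 34.8 CPM in DMSO. The groups were well apart (0.60 ± 0.10, adjusted p = 5.3e-04). MRPL7 measured 47.2, 55.2 and 53.9 CPM in CPTH2, against 37.4, 33.5 and 32.4 CPM in DMSO (0.60 ± 0.09, adjusted p = 5.1e-04), and it was the 1 member called higher under each drug. Both stand close to the 1.5-fold limit, and leaving out single samples gave 0 calls without CPTH2 replicate 2 or DMSO replicate 3, 1 without CPTH2 replicate 3 or DMSO replicate 2, 3 without DMSO replicate 1 and 4 without CPTH2 replicate 1. On the other side, RSM26 measured 64.0, 54.4 and 58.3 CPM in CPTH2, against 81.7, 75.9 and 74.3 CPM in DMSO, a difference of -0.39 ± 0.08 that passed the adjusted p (0.00282) but not the fold change. MRPL39, the bL33 gene, had -0.26 ± 0.12 (adjusted p = 0.0863). No member was called in opposite directions under the drugs, which share their DMSO samples.

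The drugs were also set against each other directly, at their different doses and the same time. In Curcumin relative to CPTH2, 2 members were higher (26.7% of all tested genes) and 22 lower (23.6%), and the median was -0.41, against 0.06 for all genes. With library size alone the counts were 6 and 10 (36.4% and 15.3% of all genes) and the median -0.10. RSM22, at 133, 148 and 104.6 CPM in Curcumin, against 25.2, 30.2 and 30.4 CPM in CPTH2, was higher (2.17 ± 0.21, adjusted p = 9.5e-04), as was MRPS18, at 248, 222 and 253 CPM in Curcumin, against 157, 149.6 and 119.8 CPM in CPTH2 (0.77 ± 0.20, adjusted p = 0.0156). Both were also higher by library size, and the call of MRPS18 was lost without CPTH2 replicate 2 (adjusted p = 0.0610) or 3 (adjusted p = 0.0907).

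The 11 small subunit and 11 large subunit members that were lower in Curcumin than in CPTH2 included MRPL6 at -1.82 ± 0.27 (adjusted p = 0.00203) and MRPL38 at -1.60 ± 0.25 (adjusted p = 0.00245). MRPS12 measured 103, 82.0 and 88.7 CPM in Curcumin, against 227, 218 and 185 CPM in CPTH2 (-1.20 ± 0.20, adjusted p = 0.00275), the CPTH2 values being above DMSO and the Curcumin values below it. MRPL35, the mL38 gene, measured 42.2, 24.9 and 29.3 CPM in Curcumin, against 64.5, 79.3 and 70.5 CPM in CPTH2 (-1.15 ± 0.23, adjusted p = 0.00564). RSM25, which encodes mS23, had -1.26 ± 0.40 (adjusted p = 0.0325) and MRPL49 -1.17 ± 0.32 (adjusted p = 0.0170), and of these 2 genes RSM25 was not called by library size. Of the 22, 9 were lower in all 14 fits, among them MRPL6, MRPL38, MRPS12 and MRPL35, and leaving out single samples gave 11 calls in either direction without CPTH2 replicate 2, 13 without CPTH2 replicate 1 or Curcumin replicate 2, and 29 without Curcumin replicate 1. The calls of RSM25 (then -1.35 to -1.19) and MRPL49 (then -1.14 to -1.05) were lost without CPTH2 replicate 1, CPTH2 replicate 2 or Curcumin replicate 2, and that of RSM25 also without CPTH2 replicate 3.

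**Figure D3:**
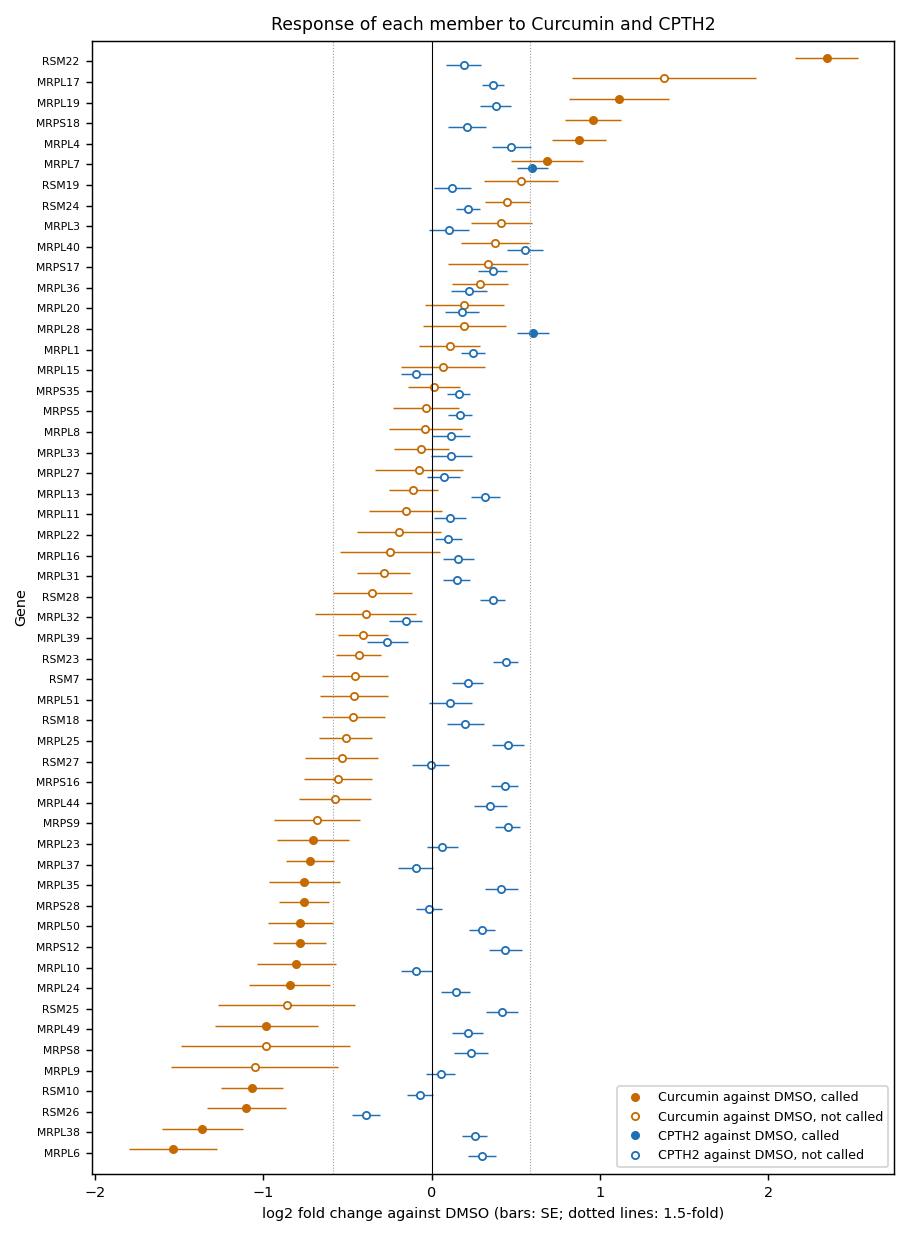
Log2 fold change (horizontal axis, bars SE) of each of the 54 members (rows) in Curcumin against DMSO, orange, and in CPTH2 against DMSO, blue, with filled points for called genes and dotted lines at 1.5-fold. CPTH2 values stay between -0.39 and 0.60 while Curcumin values run from -1.54 to 2.35, and both comparisons use the same 3 DMSO samples.

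The members differed in spread as well as in direction. The SD of their log2 fold changes was 0.72 in Curcumin against DMSO (1.30 for all genes), 0.21 in CPTH2 (0.66), 0.20 in scFv-58F (0.34) and 0.19 in scFv-645 (0.30). Members with more than 1 Puf3 element, 13 genes that include MRPL7, MRPL19 and MRPL28, had a median of 0.19 in Curcumin against DMSO, with 2 higher and 2 lower, and the 40 members with a single element had a median of -0.46, with 2 higher and 11 lower. In CPTH2 against DMSO these medians were 0.22 and 0.19. The 888 other tested genes with an element had a median of 0.15 in Curcumin, with 31.8% higher and 21.3% lower. These are descriptions, chosen after the values were known, and were not tested.

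No member was called in scFv-58F against DMSO in either direction (1.97% of all tested genes were higher and 5.43% lower by edgeR's quasi-likelihood test). At an unadjusted p under 0.05 there were 28 members, and DESeq2 called 0. By the adjusted p alone, without the fold change limit, 20 members had higher values (23.6% of all genes did) and 5 lower ones (25.5%), but in a model of all 5 groups 1 member passed. MRPS12 measured 210.4, 212 and 245 CPM in scFv-58F, against 153, 149 and 164 CPM in DMSO, all above (0.51 ± 0.07, adjusted p = 1.6e-04). MRPL28 measured 56.4, 52.3 and 47.2 CPM in scFv-58F, against 38.1, 38.2 and 34.8 CPM in DMSO (0.49 ± 0.07, adjusted p = 2.9e-04).

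At the other end in scFv-58F stood MRPL19, with 22.3, 19.3 and 18.2 CPM, against 26.5, 25.6 and 25.9 CPM in DMSO (-0.38 ± 0.08, adjusted p = 0.00299), and MRPL11, the uL10 gene (-0.30 ± 0.07, adjusted p = 0.00421). By subunit, 16 of the 20 small subunit members had positive values with a median of 0.18, and 11 of the 20 passed the adjusted p upward and 0 downward, whereas the 34 large subunit members divided into 17 positive and 17 negative with a median of 0.01, and 9 passed upward and 5 downward. With library size alone 6 small subunit members passed upward and 0 downward (median 0.12), and 6 large subunit members passed upward and 7 downward (median -0.05).

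In scFv-645 against DMSO no member was called by edgeR's quasi-likelihood test (1.32% of all tested genes higher, 2.70% lower), 23 had an unadjusted p under 0.05, DESeq2 called 0, and 3 members with higher values (10.7% of all genes) and 7 with lower ones (12.2%) passed the adjusted p alone, and 0 did in a model of all 5 groups. The median was -0.09. MRPL28 measured 51.0, 52.8 and 55.4 CPM in scFv-645, against 38.1, 38.2 and 34.8 CPM in DMSO (0.51 ± 0.07, adjusted p = 9.6e-04), and MRPL24 had 0.31 ± 0.07 (adjusted p = 0.0139). MRPL19 measured 18.3, 21.6 and 18.9 CPM in scFv-645 (-0.42 ± 0.08, adjusted p = 0.00573) and MRPL11 had -0.33 ± 0.09 (adjusted p = 0.0285). MRPL28, MRPL19 and MRPL11 thus stood to the same side of DMSO in each intrabody strain, and both comparisons use the same DMSO samples.

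The intrabody strains were also compared directly, which tests the difference between the H3K9ac binder and the control binder. No member was called in scFv-58F against scFv-645 by edgeR's quasi-likelihood test (0.668% of all tested genes higher, 2.13% lower), 16 had an unadjusted p under 0.05 and DESeq2 called 0. By the adjusted p alone 4 members (8.36% of all genes) had higher values in scFv-58F, namely MRPS12 (0.36 ± 0.12, adjusted p = 0.0498), MRPL25, which encodes mL59, RSM28, which encodes mS46, and RSM18 (0.24 ± 0.07, adjusted p = 0.0348). MRPS12 measured 210.4, 212 and 245 CPM in scFv-58F, against 192, 185 and 141 CPM in scFv-645, without overlap. MRPL25 measured 79.1, 77.2 and 74.6 CPM in scFv-58F, against 63.9, 64.6 and 65.1 CPM in scFv-645. None of these 4 passed the adjusted p in a model of all 5 groups.

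The values of scFv-58F against scFv-645 leaned one way although each was small. Of the 54 members 49 were positive, among them 20 of 20 on the small subunit with a median of 0.16 and 29 of 34 on the large subunit with a median of 0.10, and all scFv-58F samples were above all scFv-645 samples for 23 members (17.0% of all genes) and below for 0 (21.9%). With library size alone 39 members were positive, 19 of 20 on the small subunit and 20 of 34 on the large, and the median was 0.08. The all-gene median was -0.009 with TMM and -0.074 with library size. The members' median thus lay 0.155 above that of all genes with TMM and 0.156 above it with library size. MRPL36, the bL31 gene, was next after MRPS12 with 0.27 ± 0.09 (adjusted p = 0.0522), and the lowest values were -0.14 for MRPL4 and -0.09 for MRPL3. Replicate 3 of scFv-645 was the lowest of its group for many members, with a median deviation from DMSO of -0.21, against -0.01 and -0.02 in replicates 1 and 2, and without it the median of scFv-58F against scFv-645 was 0.10.

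The balance between the subunits was measured as the share of the members' reads that fell on the 20 small subunit genes. It was 44.9%, 46.8% and 41.2% in Curcumin, 43.9%, 43.7% and 44.3% in CPTH2, 45.4%, 46.1% and 46.2% in scFv-58F, 44.6%, 44.4% and 45.05% in scFv-645 and 43.1%, 43.5% and 43.2% in DMSO. All scFv-58F samples were above all scFv-645 and DMSO samples, and the difference of scFv-58F from DMSO was 2.64 percentage points, from scFv-645 1.20, and of scFv-645 from DMSO 1.44. All CPTH2 samples were also above all DMSO samples, by 0.695 points on average. Each of these 4 differences had an exact two-sided permutation p of 0.1, the smallest that 3 against 3 samples allow, and 0.15 after adjustment over 6 comparisons. Curcumin samples lay on both sides of DMSO (exact permutation p = 0.7). Without MRPS12, an alternative added after the data were seen, the difference of scFv-58F from scFv-645 was 0.783 points and the groups overlapped (exact permutation p = 0.3), while that from DMSO was 1.92 points (exact permutation p = 0.1), and the difference of CPTH2 from DMSO was 0.255 points (exact permutation p = 0.5).

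**Figure D4:**
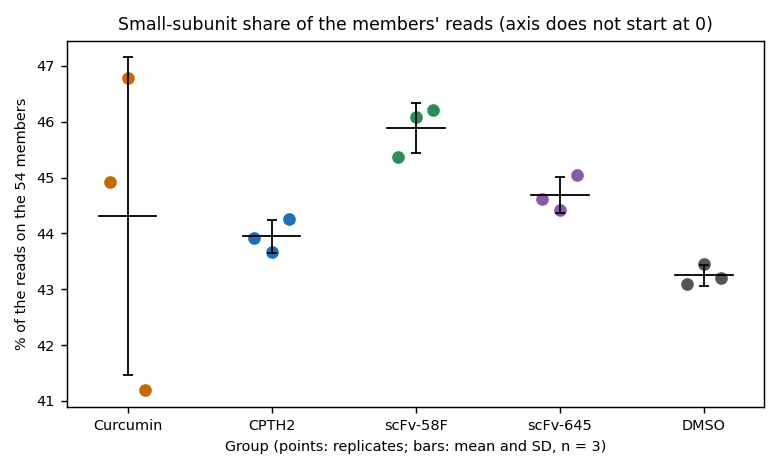
Share of the members' reads on the 20 small subunit genes, in percent, for each of the 15 samples (points), with the group mean and SD (bars, n = 3). The axis does not start at 0. The scFv-58F samples lie at 45.4% to 46.2%, the DMSO samples at 43.1% to 43.5%, and the Curcumin samples spread from 41.2% to 46.8%.

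Lists of genes that work with the mitochondrial ribosome, or that are known for other control, give the setting of these values, by counts and medians alone. In Curcumin 27.9% of all tested genes were higher and 24.7% lower than in DMSO. Of the 23 further mitochondrial ribosome genes 6 were higher and 2 lower (median -0.11), with MRP13 at 2.60 ± 0.21 and EHD3 at 1.92 among the highest, both genes of the small subunit. Of 7 ribosome assembly genes 5 were higher and 1 lower, led by the helicase gene MRH4 at 1.61, the GTPase gene MTG2 at 1.31 and the rRNA methyltransferase gene MRM1 at 1.29. Of 13 mitochondrial aminoacyl-tRNA synthetase genes 6 were higher and 1 lower, and of 15 translational activator genes 6 and 1. Of the translation factors, the initiation factor gene IFM1 rose by 1.64 and the elongation factor gene MEF1 by 0.80, while TUF1, the mitochondrial EF-Tu gene, had -0.75.

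Of the 34 nuclear respiratory chain genes 21 were lower in Curcumin and 5 had positive values (median -1.07), with the ATP synthase gene ATP17 lowest at -2.42. Of the 132 cytosolic ribosomal protein genes 113 were lower and all 132 had negative values (median -1.99). With library size alone these medians were -0.73 and -1.65, and that of the further mitochondrial ribosome genes was 0.23. PUF3 itself had 0.25 (adjusted p = 0.370) in Curcumin and 0.54 ± 0.10 (adjusted p = 0.00117, under the fold change limit) in CPTH2, each against DMSO.

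In CPTH2 against DMSO, 14.1% of all tested genes were higher and 16.9% lower. There 15 respiratory chain genes were higher and all 34 had positive values (median 0.52), with the ATP synthase gene ATP1 highest at 1.32. HAP4, the activating subunit gene of the Hap complex, was called higher (0.82 ± 0.15, adjusted p = 0.00116). HAP4 did not move with the respiratory chain genes in every group: in scFv-58F against DMSO it was called lower (-0.60 ± 0.07, adjusted p = 5.0e-05) while all 34 had positive values and 4 were called higher (median 0.31), and in Curcumin against DMSO it had 0.09 ± 0.45 (adjusted p = 0.881). HAP4 had a similar value in the control strain, with -0.58 ± 0.09 in scFv-645 against DMSO (adjusted p = 0.00181, just under the fold change limit). The respiratory chain genes of that comparison are not given here, so the likeness covers HAP4 only. In scFv-58F against scFv-645 HAP4 had -0.03 ± 0.10 (adjusted p = 0.866). In CPTH2 against DMSO 3 of the further mitochondrial ribosome genes were higher, MRP1, MRP20 and MRP51 at 0.62, 0.62 and 0.61, and the list's median was 0.37. MEF1, MEF2 and IFM1 were called higher at 0.89, 0.84 and 0.63, while 96 of 132 cytosolic ribosomal protein genes were lower (median -0.70). In scFv-58F against scFv-645, 0 of the 34 respiratory chain genes were called, all had positive values, and the list's median was 0.43, beside 0.15 for the members.

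**Figure D5:**
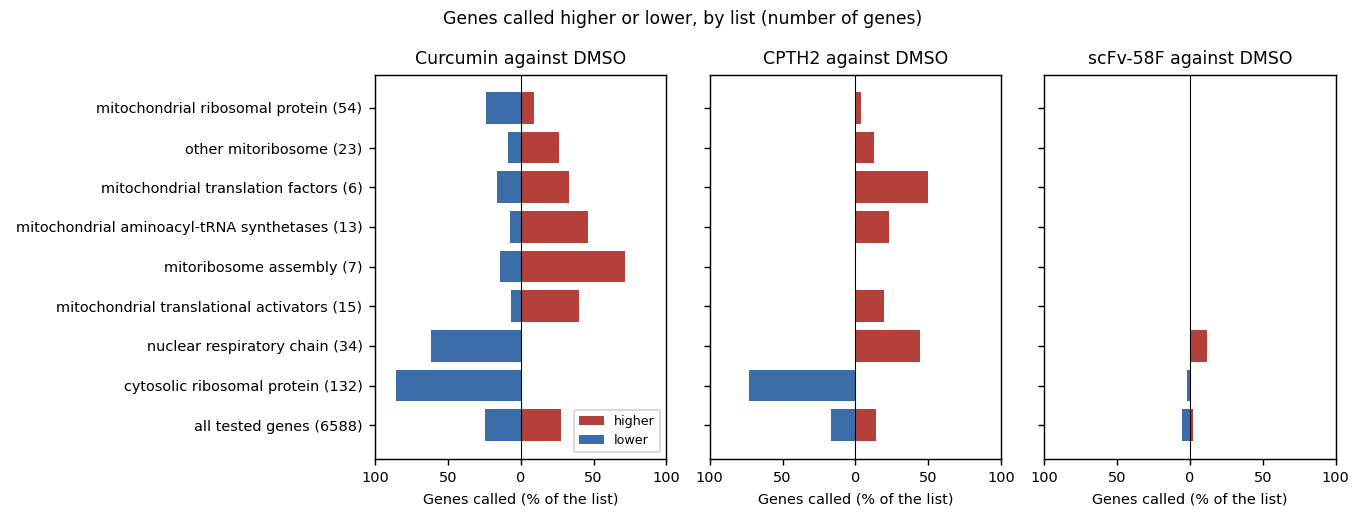
Share of each gene list called higher (red, to the right) or lower (blue, to the left) in Curcumin, CPTH2 and scFv-58F against DMSO, in percent of the list, with the number of genes in parentheses. In Curcumin 24.1% of the members were lower and 9.26% higher, the cytosolic ribosomal protein genes were mostly lower and the assembly genes mostly higher, and scFv-58F had no called member.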

How the data were processed

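RNA was sequenced as stranded poly(A) libraries in 1 HiSeq lane. Per the paper's methods and the file headers, the authors trimmed reads with cutadapt, mapped them with segemehl to sacCer3 and counted them per gene with NGSutils 0.5.9, without regard to strand and with the setting partial for multiply mapped reads. The deposited files give read counts per gene, beside CPM and RPKM values that the authors derived from them and that were not used here. Groups came from the sample labels, and the replicates are biological as the methods state, so p-values measure the spread between these cultures.

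The deposited counts were tested with edgeR 4.0.16 (quasi-likelihood test, TMM, R 4.3.3) on 6588 genes, those reaching 10 counts in 3 or more of the 15 libraries, each comparison on its own 6 samples, with Benjamini-Hochberg adjustment over all tested genes. Calls needed an adjusted p under 0.05 and a change of 1.5-fold or more. CPM values shown are scaled by TMM over all 15 samples. Shares of reads were compared with an exact permutation test (Python 3.11.15, scipy 1.17.1). The fit was also run on simulated counts in which few genes changed. Many genes changed in the drug comparisons, unlike that setting, so the run does not check their calls. Sequences and positions came from the RefSeq genome, whose coordinates equal those of the files for all 54 members.

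Alternatives were DESeq2 1.42.0, DESeq2 size factors, library size alone, no filter or a stricter one, all 5 groups in 1 model, a replicate block, no fold change limit and leaving out each sample. In each comparison up to 6 members called in either direction were named by size of change, or 2 where none was called, with the 3 highest and 3 lowest in DMSO, and up to 3 called genes of each other list. The members and all gene lists were chosen with earlier results of these data known. Mitochondrially encoded genes were too sparse to use.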

Additional observations from a re-analysis of the deposited data

How the results depend on the processing

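Counts depended on the fold change limit, on scaling and on single libraries. With library size alone the members' median log2 fold change was -0.0228 in Curcumin against DMSO, 0.0187 in scFv-58F against DMSO, 0.0818 in scFv-58F against scFv-645 and -0.0974 in Curcumin against CPTH2. The all-gene medians moved alike. With TMM the members' median minus that of all genes was -0.403, 0.0823, 0.155 and -0.473 in these comparisons, and with library size -0.404, 0.0821, 0.156 and -0.478. Without the fold change limit 23 members passed in CPTH2 against DMSO, 25 in scFv-58F against DMSO, 10 in scFv-645 against DMSO and 4 in scFv-58F against scFv-645. Fits that dropped 1 sample each gave 10 to 29 calls in Curcumin against DMSO, 0 to 4 in CPTH2 against DMSO and 11 to 29 in Curcumin against CPTH2, and a median of 0.0959 (without scFv-645 replicate 3) to 0.185 (without scFv-645 replicate 1) in scFv-58F against scFv-645. No median over all 54 members and none of the 35 named gene results changed sign in these fits. With library size alone the medians of the large subunit members (0.13) and of those particular to mitochondria (0.03) in Curcumin against DMSO, of the large subunit members in scFv-58F against DMSO (-0.05) and of the further mitochondrial ribosome genes in Curcumin against DMSO (0.23) did. Of 455 alternative fits of those 35, 421 kept their side of the threshold and 34 fell short of it, 30 of these among fits that left out a sample, where 1 group has only 2 cultures. The other 4 were MRPL7 with the replicate block and MRPL49, MRPL24 and RSM25 with library size alone. The causes were not tested.

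The labels do not say whether a replicate number marks a shared day or culture, and the samples were treated as unpaired. In no comparison did every same-numbered pair correlate above 0.1, but with 3 samples per group this cannot exclude pairing. In Curcumin against CPTH2 all 3 correlations were positive (0.0863, 0.124 and 0.0777). With the replicate as a block 18 members were called in Curcumin against DMSO, 24 in Curcumin against CPTH2, 2 in CPTH2 against DMSO and 0 in the intrabody comparisons. The share of all genes was not taken for the block fits either. The spread between the Curcumin cultures and the 3 samples per group limit which members can be called, and fold changes in Curcumin depend on how its libraries are scaled.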
